A study of Mus musculus with 14 samples.

Results

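The genes of thyroid hormone signaling described here are the receptors Thra and Thrb, the deiodinases Dio2 and Dio3, the intracellular hormone-binding protein gene Crym, and the hormone-responsive transcription factor gene Klf9. They were taken by name as 6 of the 35976 genes counted. They were followed across bulk RNA-seq libraries of supporting cells (SCs) from cochlear explants of Lfng-EGFP mice. The groups were P0 with compound E (CompE, 4 libraries), P0 with DMSO (4), P6 with CompE (3) and P6 with DMSO (3), and the protocol gives the younger age as P0-P1. All explants were cultured for 24 hours in a medium with serum and N2 supplement, whose thyroid hormone content is not given in the sources used here. CompE, a γ-secretase inhibitor that blocks Notch activation, was present at 2 μM, and controls received the same volume of DMSO. The purpose of the design was to compare Notch inhibition at an age when SCs can still become hair cells (HCs) with an age at which they rarely do.

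Cells were sorted on EGFP driven by regulatory DNA of Lfng, itself a gene of the Notch pathway, so the gate takes in every EGFP-positive cell type of the explant. Cochleae were pooled in the tubes that were sorted. In bulk RNA of this kind, fewer cells of a type and less RNA per cell cannot be told apart. The labels place P0 libraries in batches 1 to 3 and P6 libraries in batches 4 to 6, each with both treatments, so age and batch cannot be told apart.

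Thyroid hormone reaches cells mostly as the prohormone T4. DIO2 converts T4 to the active hormone T3, whereas DIO3 inactivates both. T3 acts through the nuclear receptors TRα (Thra) and TRβ (Thrb), which sit on DNA with a retinoid X receptor, recruit corepressors without hormone and coactivators with it. μ-Crystallin, the product of Crym, binds T3 in the cytosol. Klf9 and Hr are among the most direct T3 targets known in other tissues. In the cochlea, hormone before the onset of hearing is needed for remodeling of the greater epithelial ridge, for the tectorial membrane and for differentiation of the organ of Corti. TRβ is the receptor on which hearing depends most, DIO2 is known from the connective tissue around the epithelium, and DIO3 protects the immature cochlea from early hormone.

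RefSeq held promoter entries for 4 of the 6 genes on GRCm38.p6. The 250 bases upstream of the start site are printed for Dio2 and Klf9, the deiodinase and the response gene with higher fitted levels at P6. Capitals mark the motifs that were found, and RefSeq starts Dio2 upstream of the GENCODE start used for positions here.

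Dio2, chr12:90739039-90739288, minus strand: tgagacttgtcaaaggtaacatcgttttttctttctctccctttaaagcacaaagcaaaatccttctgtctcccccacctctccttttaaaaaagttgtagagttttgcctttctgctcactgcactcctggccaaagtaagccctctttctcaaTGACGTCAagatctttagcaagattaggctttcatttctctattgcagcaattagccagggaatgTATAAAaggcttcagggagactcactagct
Klf9, chr19:23140976-23141225, plus strand: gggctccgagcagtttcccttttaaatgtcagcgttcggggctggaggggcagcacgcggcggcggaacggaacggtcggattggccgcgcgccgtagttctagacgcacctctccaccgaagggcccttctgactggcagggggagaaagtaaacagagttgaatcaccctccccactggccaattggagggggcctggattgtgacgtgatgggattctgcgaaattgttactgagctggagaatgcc

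The Dio2 window held a TATA box (TATAAA) that begins 30 bases upstream of the start site and a cAMP response element (TGACGTCA) that begins 95 bases upstream. TATAAA stood in 12.4% and TGACGTCA in 1.55% of 32851 mouse promoter windows. The Klf9 window held neither of them on either strand, nor AGGTCA (thyroid hormone response half-site, 14.0% of windows), TGGGAA (RBPJ, 21.6%), CACGTG (6.02%) or GGGCGG (32.7%). The Dio2 window held none of these last 4 motifs either. A window of Thrb, which is not printed, held AGGTCA beginning 184 bases upstream. Sequence outside the windows was not searched. The TATA box, cAMP response element and GC box were added to the search after the sequences had been seen.

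Libraries held 19415066 to 44430063 counts. Levels are given as counts scaled to a library total of 1000000 (RPM), and as RPM per kilobase of exon (RPM/kb) where genes are compared with each other. Markers of the labelled cell type were present: 9 SC markers summed to 5252 to 11220 RPM over the 14 libraries, and none was at 0 in a whole group. Markers of other cells were also read. Summed levels of 8 mesenchyme and fibrocyte markers, led by Lum, were at most 1384 RPM in all P0 libraries and in both of P6 replicate 1, and reached 4147 (DMSO) and 3446 RPM (CompE) in P6 replicate 3. The same 2 libraries held the highest sums of 5 macrophage markers, 20.5 and 57.3 RPM. They also held the lowest SC marker sums of the 14 libraries, 6031 (DMSO) and 5252 RPM (CompE). Lum alone gave 3210 and 2747 RPM of the mesenchyme sums there. Among the P6 libraries of each treatment, the 7 other markers of that list were also each highest in replicate 3. Over all 14 libraries this did not hold for each marker. P6 replicate 3 therefore stands apart.

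A gene was called when edgeR's quasi-likelihood test gave 0.01 or less after Benjamini-Hochberg adjustment over all tested genes and the change was 2-fold or more. Crym was called lower with CompE at P0, and lower at P6 than at P0 under both treatments. Klf9 was called higher at P6 under both treatments. Neither receptor was called in any comparison, and Dio3 was nearly undetected. Of the 9 SC markers, 2 were called higher and 2 lower at P6 than at P0 with DMSO. With CompE 2 were called higher and 3 lower. Their fitted log2 fold changes ran from -2.11 to 1.835 with DMSO. The sum over the 9 markers does not show this shift, and its part in the differences between ages was not tested.

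**Figure D1:**
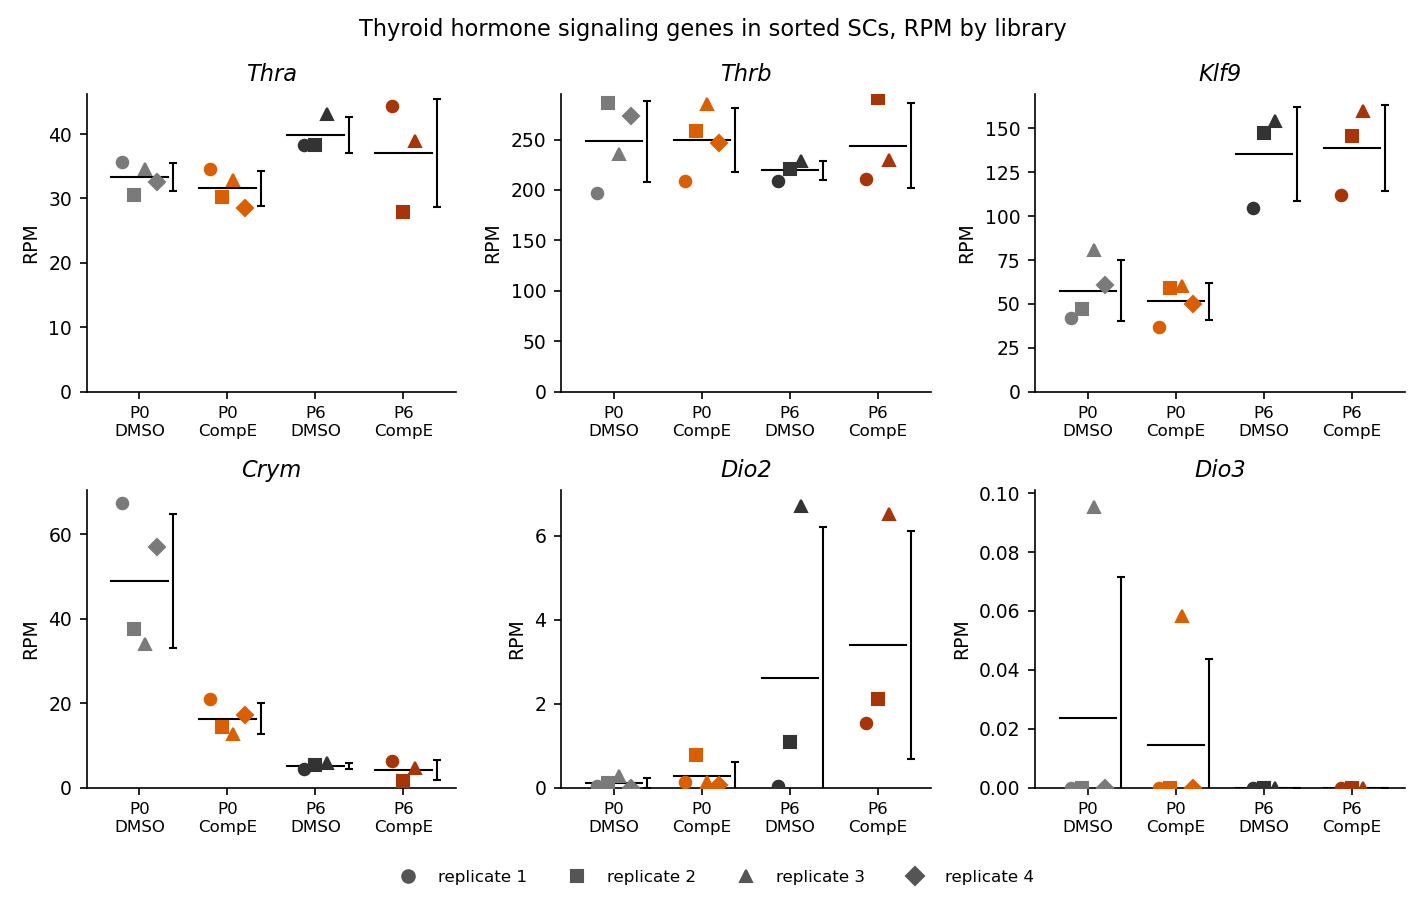
RPM (vertical axis, each gene on its own scale from 0) of the 6 genes in every library, by age and treatment on the horizontal axis, with marker shape for the replicate number, a line for the group mean and a bar for ±1 SD. Crym in the 4 P0 CompE libraries lies between 12.8 and 21.0 RPM, below the 34.0 to 67.3 RPM of the P0 DMSO libraries, and Klf9 at P6 lies above every P0 library.

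Per kilobase, Thrb was the highest of the 6 in all 8 P0 libraries, at 26.6 to 38.7 RPM/kb. Klf9 at P0 was at 7.69 to 16.8, Thra at 6.18 to 7.72 and Crym at 3.77 to 19.8 RPM/kb. The place of Crym depended on treatment: it was above Thra in all 4 P0 DMSO libraries (10.0 to 19.8 against 6.62 to 7.72 RPM/kb) and below Thra in all 4 P0 CompE libraries (3.77 to 6.21 against 6.18 to 7.50 RPM/kb). At P6, Thrb was at 28.3 to 39.3 and Klf9 at 21.7 to 33.2 RPM/kb, and Klf9 exceeded Thrb in 3 of 6 libraries, so their order is within the spread. Thra followed at 6.05 to 9.60 RPM/kb, apart from its neighbors on both sides. Crym was at 0.473 to 1.85 RPM/kb. Its range overlapped that of Dio2, which reached at most 0.133 RPM/kb at P0 and 1.16 at P6. Within each library, at both ages, Crym was above Dio2.

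Thrb, on chromosome 14 (17660261 to 18038090, plus strand, GRCm38), was read at similar levels in the 4 groups. With DMSO it measured 196.8, 286.3, 235.8 and 273.4 RPM in P0 replicates 1 to 4 and 209.1, 220.4 and 228.5 RPM in P6 replicates 1 to 3. With CompE it measured 209.3, 258.6, 285.4 and 246.1 RPM at P0 and 210.7, 290.9 and 229.9 RPM at P6. All 4 groups overlapped. The fitted log2 fold change of CompE over DMSO was -0.03 at P0 (95% interval -0.41 to 0.35, adjusted p = 0.974) and 0.17 at P6 (-0.24 to 0.58, adjusted p = 1.00). Between ages it was -0.11 with DMSO (-0.51 to 0.28, adjusted p = 0.694) and 0.10 with CompE (-0.29 to 0.50, adjusted p = 0.719). Each of these intervals lies inside a 2-fold change in either direction.

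Thra, on chromosome 11 (98740638 to 98769006, plus strand), was lower and also narrow in range. P0 DMSO replicates 1 to 4 measured 35.6, 30.5, 34.6 and 32.6 RPM and P0 CompE replicates 34.6, 30.2, 32.9 and 28.5 RPM. Each CompE library was below the DMSO library of its number, 4 of 4, but by little, and the groups overlapped (log2 fold change -0.12, 95% interval -0.34 to 0.11, adjusted p = 0.727). P6 DMSO replicates 1 to 3 measured 38.3, 38.2 and 43.1 RPM, all above every P0 library, whereas P6 CompE replicates spread more widely at 44.3, 27.9 and 38.9 RPM. The difference between ages was 0.33 with DMSO (SE 0.13, interval 0.05 to 0.62, adjusted p = 0.0901) and 0.36 with CompE (SE 0.13, interval 0.08 to 0.65, adjusted p = 0.0670), below the threshold in both.

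The 3′ end of Thra overlaps the circadian repressor gene Nr1d1 on the opposite strand. They share 263 exonic bases, 5.70% of the exonic length of Thra. The library kit does not mark strand, so reads in the shared stretch cannot be assigned to one of them. Nr1d1 itself differed between ages by 0.74 with DMSO (adjusted p = 0.134). The ratio of Thrb to Thra in RPM/kb was 4.69 ± 1.06 (SD, n = 4) in P0 DMSO, 4.97 ± 0.80 (n = 4) in P0 CompE, 3.43 ± 0.15 (n = 3) in P6 DMSO and 4.38 ± 1.87 (n = 3) in P6 CompE. Thrb transcript thus exceeded Thra transcript per length in every library, with the lowest ratio at 2.96. Gene counts do not separate the hormone-binding TRα1 from the TRα2 variant, which does not bind T3, nor TRβ1 from TRβ2.

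Crym, on chromosome 7 (120186380 to 120202111, minus strand), was the only member called for CompE at P0, 1 of the 4 members tested there, when 1.22% of all 15937 tested genes were called. P0 DMSO replicates 1 to 4 measured 67.3, 37.6, 34.0 and 57.1 RPM. P0 CompE replicates measured 21.0, 14.3, 12.8 and 17.2 RPM, each less than a DMSO library of any number. The mean was 49.0 ± 15.8 RPM (SD, n = 4) with DMSO and 16.3 ± 3.63 RPM (n = 4) with CompE. The log2 fold change was -1.61 (SE 0.22, 95% interval -2.10 to -1.13, adjusted p = 0.00299), and CompE was lower in 4 of 4 pairs.

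The drop was of similar size within each pair, with log2 ratios of -1.68, -1.39, -1.41 and -1.73 for replicates 1 to 4, which also cover the 3 batches. With the replicate number as a block it was -1.59, and the call held. The call was lost, with adjusted p up to 0.0504, when CompE replicate 2, 3 or 4, DMSO replicate 4, or the pair 2, 3 or 4 was left out, while the log2 fold change stayed between -1.74 and -1.47. With all 14 libraries in one fit the adjusted p was 0.0139.

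Markers of several cell types moved alongside. Summed RPM of the 9 SC markers was 7961 to 11220 with DMSO and 7270 to 7673 with CompE at P0. Among them the Notch ligand gene Jag1 averaged 2197 RPM with DMSO and 879 RPM with CompE. Gjb2, the highest over all 14 libraries, averaged 1664 and 1381 RPM. Of the 9 markers 8 had lower fitted levels with CompE (median log2 fold change -0.31). The 7 HC markers, led by Myo6, summed to 557 to 1151 RPM with DMSO and 1069 to 1649 RPM with CompE, with 6 of 7 higher (median 0.66). The 4 greater epithelial ridge markers, led by Tecta, summed to 2107 to 4186 RPM with DMSO and 2753 to 3675 RPM with CompE. Of these ridge markers 3 were higher with CompE (median 0.47), 0 were called without a block and 1 was called higher with the replicate block. The 8 mesenchyme markers summed to 958 to 1188 RPM with DMSO and 1231 to 1384 RPM with CompE, but 7 of the 8 were lower with CompE (median -0.48), and the sum followed Lum, at 688 to 845 RPM with DMSO and 941 to 1139 RPM with CompE. The median over all tested genes was 0.01.

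None of the markers of the SC, HC and mesenchyme lists was called at P0 by edgeR without a block. DESeq2 called the Notch ligand gene Jag1, an SC marker, lower (-1.37, adjusted p = 1.35e-05) and Atoh1, a transcription factor gene of HCs, higher (1.84, adjusted p = 0.000364). With the replicate block edgeR called Jag1 (-1.29, adjusted p = 0.00275), Atoh1 (1.94, adjusted p = 0.000122) and the HC transcription factor gene Pou4f3 (1.13, adjusted p = 0.00606). The part of these cells in the Crym result was not tested.

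At P6 Crym was far lower. DMSO replicates 1 to 3 measured 4.34, 5.33 and 5.82 RPM and CompE replicates 6.29, 1.60 and 4.63 RPM, with counts of 46 to 240 per library. The treatments overlapped at this age, and the CompE library was the lower in 2 of 3 pairs. The log2 fold change of CompE was -0.31 with a wide interval of -1.54 to 0.91 (adjusted p = 1.00), and the P0 value of -1.61 lies just outside that interval. The interaction of age and treatment in edgeR was 1.31 (SE 0.48, interval 0.28 to 2.34, adjusted p = 0.896). The effect of CompE on Crym is therefore not shown to differ between ages at the threshold.

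The fall of Crym between ages was among the firmest member results. It was -3.16 with DMSO (SE 0.37, interval -3.96 to -2.35, adjusted p = 6.99e-05) and -1.85 with CompE (SE 0.36, interval -2.61 to -1.08, adjusted p = 0.00264), and P6 libraries lay below all P0 libraries of either treatment. Without both libraries of P6 replicate 3 the CompE value was -1.90 and missed the threshold at an adjusted p of 0.0105, and with the 7 CompE libraries alone it was -1.84 at 0.0128. The DMSO call held in each fit that was run. Crym and Klf9 were the 2 of 5 tested members called between ages, in DMSO (7.13% of all 17090 tested genes were called) and in CompE (6.43%).

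**Figure D2:**
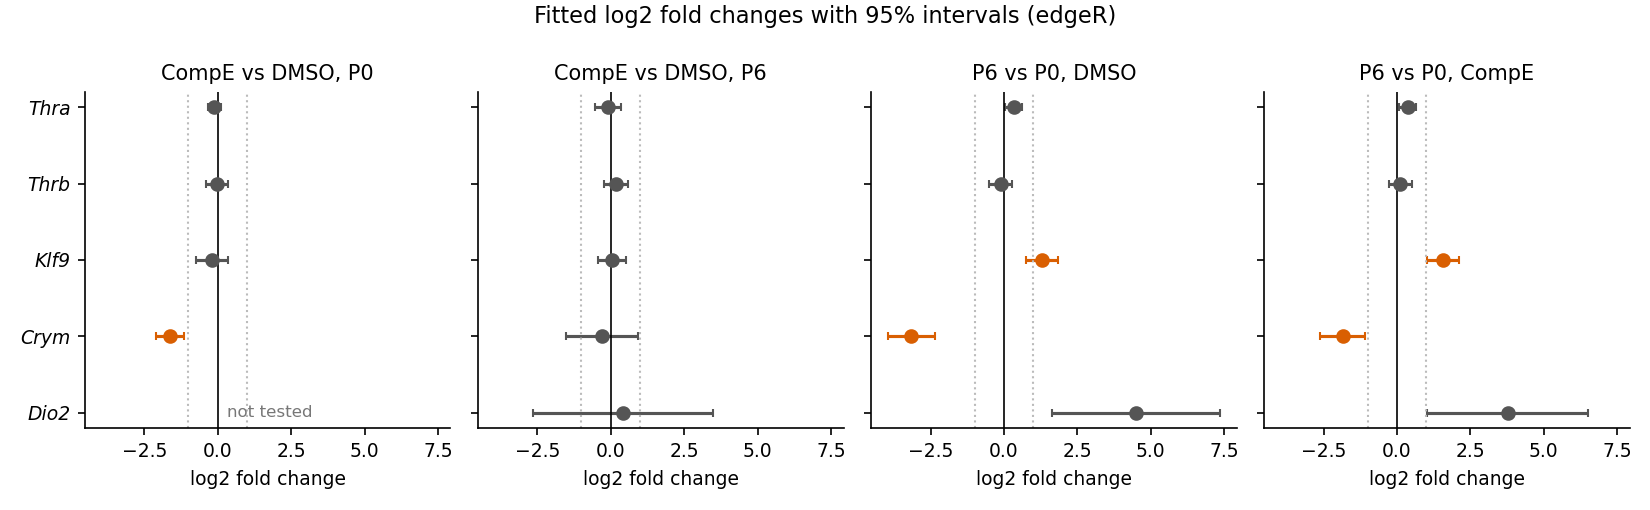
Fitted log2 fold changes (horizontal axis) with 95% intervals from edgeR for 5 members in 4 comparisons, with called values in orange and dotted lines at a 2-fold change. Crym lies at -1.61 for CompE at P0 and at -3.16 and -1.85 between ages, Klf9 at 1.30 and 1.56 between ages, and the intervals of Dio2 are the widest.

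Dio3, on chromosome 12 (110279068 to 110281097, plus strand), gave 5 reads in the series. P0 replicate 3 held all of them, 2 with CompE and 3 with DMSO, and the other 6 P0 libraries held 0. At P6 it was at 0 in all 6 libraries, which allows up to 0.0323 RPM over the 3 DMSO libraries and 0.0369 RPM over the 3 CompE libraries (3 counts, for counting error only). It passed the filter on low counts in no comparison, and no difference was detectable at this depth. Reads were counted without molecular identifiers, so they are not independent molecules.

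Dio2, on chromosome 12 (90724552 to 90738438, minus strand, as GENCODE places the gene), was also near the limit of detection at P0. DMSO replicates 1 to 4 gave 1, 5, 9 and 0 reads (0.0378, 0.125, 0.286 and 0 RPM), and CompE replicates 6, 15, 5 and 2 reads (0.135, 0.773, 0.146 and 0.0631 RPM). It did not pass the filter for the P0 comparison. At P6 the libraries differed widely: DMSO replicates 1 to 3 gave 1, 30 and 277 reads (0.0417, 1.08 and 6.72 RPM), and CompE replicates 39, 61 and 179 reads (1.55, 2.13 and 6.52 RPM). P6 DMSO replicate 1 lay within the P0 range, whereas each P6 CompE library lay above all P0 libraries.

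The fitted difference between ages was 4.50 with DMSO (SE 1.34, interval 1.63 to 7.36, adjusted p = 0.0270) and 3.77 with CompE (SE 1.28, interval 1.01 to 6.52, adjusted p = 0.0497). Neither met the threshold of 0.01 in edgeR, and DESeq2 gave 0.00143 and 0.00857. CompE against DMSO at P6 was 0.40 with an interval from -2.67 to 3.47, so a difference of several fold in either direction was not resolved. Dio2 shares 100 exonic bases, 1.72% of its exonic length, with the noncoding Gm26512 on the opposite strand, which gave 3 reads in the series.

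Mesenchyme markers moved with Dio2 among the P6 libraries. Their sum was 928, 2482 and 4147 RPM in DMSO replicates 1 to 3 and 1228, 1612 and 3446 RPM in CompE replicates 1 to 3. Lum gave 740, 2113 and 3210 RPM of the DMSO sums and 1004, 1378 and 2747 RPM of the CompE sums. The 7 other markers gave 188.2, 368.5 and 937.6 RPM with DMSO and 224.0, 233.8 and 699.0 RPM with CompE. In both treatments the replicate with the highest sum, replicate 3, also had the most Dio2, and DMSO replicate 1 had the lowest of both. At P0 the sum was 958 to 1384 RPM. Between ages 5 of the 8 markers had higher fitted levels at P6 and 3 had lower ones, under both treatments. The part of these cells in the Dio2 values was not tested. Without both libraries of P6 replicate 3 the difference between ages was 2.40 with DMSO (adjusted p = 0.188) and 2.94 with CompE (adjusted p = 0.105). Leaving out single libraries gave 2.40 to 5.45 with DMSO and 2.94 to 4.96 with CompE, and the DMSO value passed the threshold only without P6 DMSO replicate 1 (5.07, adjusted p = 0.00832).

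**Figure D3:**
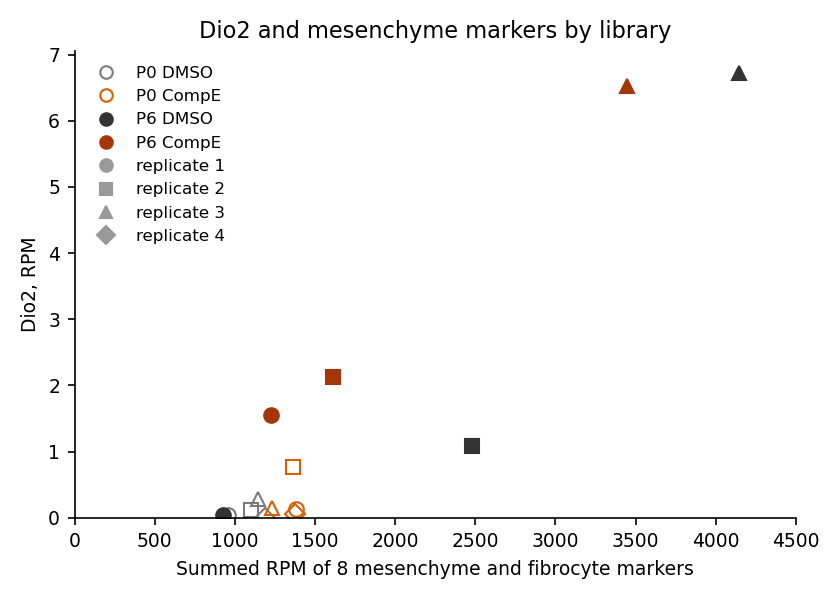
Dio2 in RPM (vertical axis) against the summed RPM of 8 mesenchyme and fibrocyte markers (horizontal axis) in the 14 libraries, with color for group, open symbols for P0 and shape for the replicate number. The 2 libraries of P6 replicate 3 stand apart with 6.72 and 6.52 RPM of Dio2 at sums of 4147 and 3446 RPM, and the P0 libraries hold at most 0.773 RPM.

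Klf9, on chromosome 19 (23141226 to 23168134, plus strand), encodes a Krüppel-like factor induced by T3 and also by glucocorticoids in many tissues. P0 DMSO replicates 1 to 4 measured 41.9, 47.2, 80.7 and 60.7 RPM and P0 CompE replicates 37.0, 58.8, 60.3 and 49.9 RPM. P6 DMSO replicates 1 to 3 measured 104.5, 147.4 and 154.2 RPM and P6 CompE replicates 111.9, 145.5 and 159.6 RPM. All P6 libraries lay above all P0 libraries, and the treatments overlapped at each age. Within P6, replicates of the same number were close to each other, and replicate 1 was the lowest under both treatments. The order of the 3 P6 replicates by Klf9 was that of their mesenchyme marker sums under both treatments, and the part of these cells in the Klf9 values was not tested.

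The difference between ages was 1.30 with DMSO (SE 0.25, interval 0.75 to 1.84, adjusted p = 0.00279) and 1.56 with CompE (SE 0.26, interval 1.01 to 2.11, adjusted p = 0.000881). The DMSO call was lost, at adjusted p up to 0.0146, without P0 DMSO replicate 2, without P6 DMSO replicate 2, without both libraries of P6 replicate 3, or with the 7 DMSO libraries alone (0.0130), at log2 fold changes of 1.19 to 1.30. Without both libraries of P6 replicate 3 it was 1.24 with DMSO (adjusted p = 0.0109) and 1.49 with CompE, where the call held. CompE changed Klf9 by -0.20 at P0 (interval -0.75 to 0.35, adjusted p = 0.836) and by 0.05 at P6 (-0.43 to 0.53, adjusted p = 1.00). At both ages the interval excludes a 2-fold effect of CompE in either direction.

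At P6, 0 of the 5 tested members were called for CompE by edgeR, and percent called over all genes was also 0 (0 of 15322, with 289 at an unadjusted p under 0.05, and 13 called by DESeq2, none of them a member). The interaction gave 0 of 5 members and 0 of 17090 genes in edgeR, with 811 genes at an unadjusted p under 0.05 and 33 called by DESeq2. P6 libraries also spread more widely: edgeR's common biological variation was 46.7% of the mean at P6 and 27.2% at P0.

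Other genes of the pathway were read from 7 lists with 46 genes. With CompE, edgeR called 0 of the 42 that could be tested at P0 and 0 of 41 at P6. Between ages 4 of 43 were called higher and 0 lower in DMSO, and 3 of 43 higher and 0 lower in CompE, when 3.74% and 3.54% of all genes were called higher. The median log2 fold change over the 43 genes was 0.18 with DMSO and 0.21 with CompE, beside -0.05 and -0.03 over all tested genes.

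**Figure D4:**
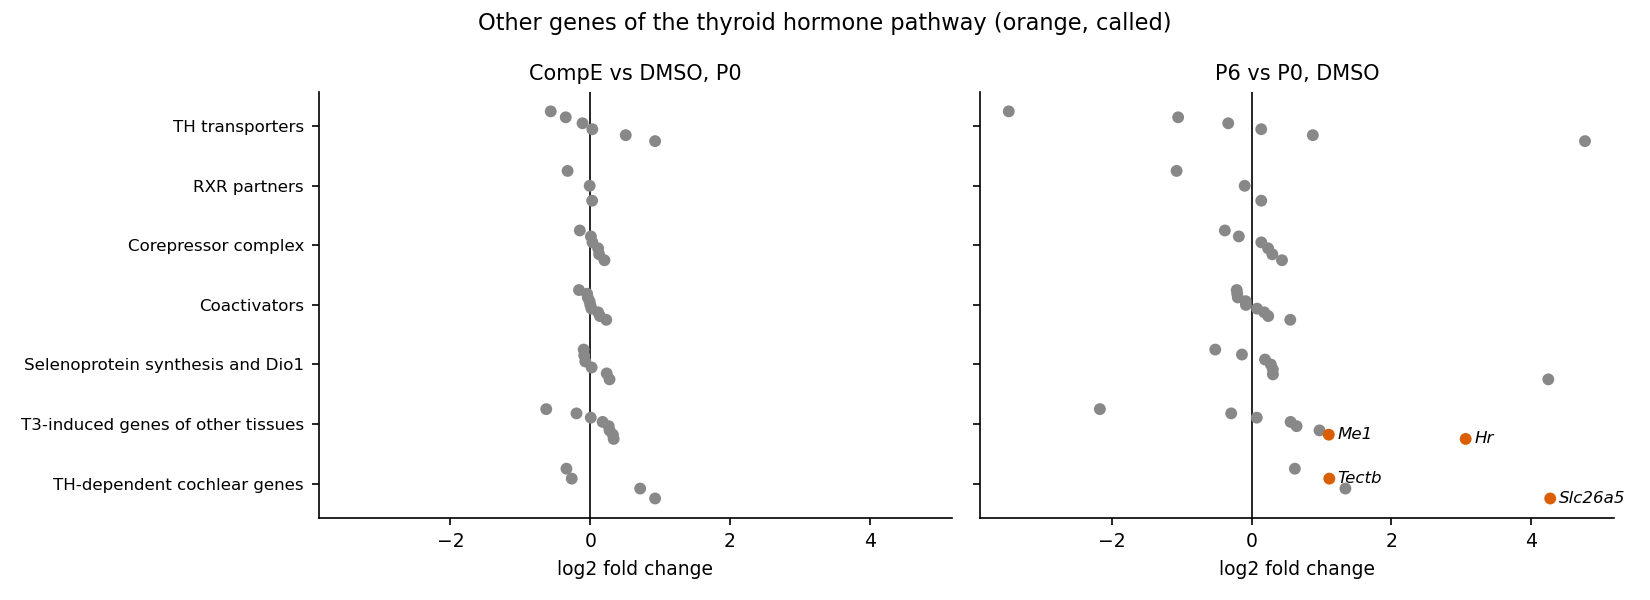
Fitted log2 fold changes (horizontal axis) of the tested genes in 7 lists of the thyroid hormone pathway (rows), for CompE against DMSO at P0 and for P6 against P0 with DMSO, with called genes in orange and named. No gene is called for CompE at P0, and Hr, Me1, Slc26a5 and Tectb are called between ages.

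Of 10 genes listed as regulated by T3 in other tissues, 8 were tested between ages and 2 rose under both treatments. Hr, a corepressor that binds thyroid hormone receptors, rose most. It measured 10.5 to 22.2 RPM in P0 DMSO and 111.0, 136.1 and 190.7 RPM in P6 DMSO replicates 1 to 3, and 19.0 to 26.5 RPM in P0 CompE and 70.7, 114.6 and 126.4 RPM in P6 CompE. The ages were fully separate. The log2 fold change was 3.06 with DMSO (SE 0.28, adjusted p = 8.47e-06) and 2.34 with CompE (SE 0.28, adjusted p = 8.76e-05), and both calls held in each fit that was run. Hr also ordered the P6 replicates as the mesenchyme marker sums did, and without both libraries of P6 replicate 3 the values were 2.88 and 2.22. The part of these cells in the Hr values was not tested. At P6 the CompE library was below the DMSO library in 3 of 3 pairs, but the difference of -0.47 did not pass (interval -1.11 to 0.16, adjusted p = 1.00).

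Me1, the cytosolic malic enzyme that supplies NADPH for lipid synthesis, was at 166.4 to 267.9 RPM in the P0 libraries and at 343.9 to 555.4 RPM in the P6 libraries. It rose by a log2 fold change of 1.10 with DMSO (SE 0.20, adjusted p = 0.00188) and 1.52 with CompE (SE 0.20, adjusted p = 0.000218), again in each fit that was run. Klf13, a relative of Klf9, differed by 0.56 with DMSO (adjusted p = 0.00941), under a 2-fold change, and by 0.32 with CompE (adjusted p = 0.104). Thrsp, a T3 target of liver, was the largest of the list for CompE at P0, with -0.63 (adjusted p = 0.662). Nrgn and Pcp2, T3 targets of the brain, were too low to test. The list's median was 0.60 with DMSO and 0.36 with CompE.

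**Figure D5:**
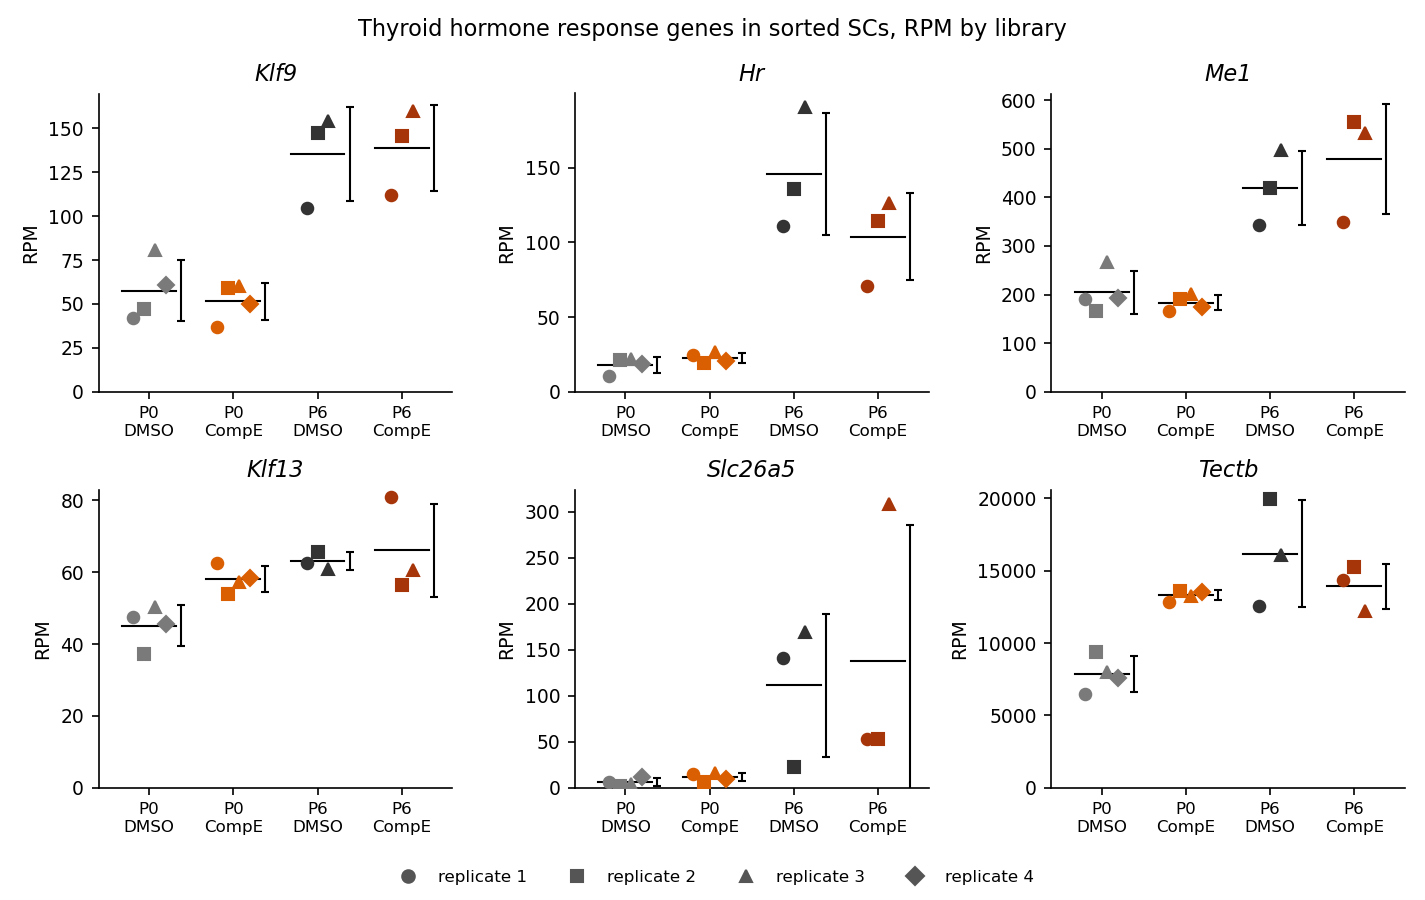
RPM (vertical axis, each gene on its own scale from 0) of Klf9, 3 other T3-induced genes (Hr, Me1, Klf13) and 2 hormone-dependent genes of the cochlea (Slc26a5, Tectb) in every library, with marker shape for the replicate number, a line for the group mean and a bar for ±1 SD. Hr runs from 10.5 to 26.5 RPM at P0 and from 70.7 to 190.7 RPM at P6, and Klf9, Hr and Me1 separate the ages without overlap.

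Of 4 cochlear genes whose expression depends on thyroid hormone, 2 were called higher at P6 with DMSO and 1 with CompE. Tectb encodes β-tectorin, a major tectorial membrane protein, and was very abundant. P0 DMSO replicates measured 6478, 9409, 8019 and 7558 RPM, P0 CompE replicates 12860, 13600, 13280 and 13540 RPM, and P6 DMSO replicates 12540, 19940 and 16080 RPM. P6 CompE replicates measured 14330, 15260 and 12220 RPM. Tectb rose by 1.11 between ages with DMSO (SE 0.20, adjusted p = 0.00160), a call lost without P6 DMSO replicate 2 (0.89, adjusted p = 0.0113) and with the 7 DMSO libraries alone (adjusted p = 0.0171), and differed by 0.21 with CompE (adjusted p = 0.491).

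At P0 Tectb was higher with CompE in 4 of 4 pairs without overlap, by 0.72 (SE 0.16, interval 0.35 to 1.08, adjusted p = 0.0400), which is past neither part of the threshold. Its interaction of age and treatment was -0.91 (SE 0.29, adjusted p = 0.723). So the CompE libraries at P0 already held Tectb near the P6 range, and a difference between ages in the effect of CompE was not shown.

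Slc26a5 encodes prestin, the motor protein of outer HCs, and was measured here in sorted SCs. P6 DMSO replicates 1 to 3 gave 141.3, 22.8 and 169.2 RPM and P6 CompE replicates 53.1, 53.2 and 308.1 RPM, against 1.80 to 15.8 RPM in the 8 P0 libraries. It rose by 4.27 with DMSO (SE 0.78, adjusted p = 0.00175) and by 3.67 with CompE (SE 0.75, adjusted p = 0.00394). The CompE call was lost in 6 of the 15 fits that left out libraries. These included leaving out any one P0 CompE library or P6 CompE replicate 3 (log2 fold changes of 2.36 to 3.85, adjusted p up to 0.0232). HC markers summed to 371 to 551 RPM in P6 replicates 1 and 2 and to 965 (DMSO) and 1092 RPM (CompE) in replicate 3, where Slc26a5 was also highest. P6 DMSO replicate 1, however, held 141.3 RPM of Slc26a5 at an HC marker sum of 460 RPM. At P0 the sums were 557 to 1151 RPM with DMSO and 1069 to 1649 RPM with CompE. Their part in the Slc26a5 values was not tested.

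Of 7 transporter genes 6 were tested between ages and 0 were called by edgeR in any comparison. Slco1c1, the gene of the T4 transporter OATP1C1, showed the largest fitted change of the list in DMSO, 4.77 (SE 1.49, adjusted p = 0.0342), from 0.0250 to 0.690 RPM at P0 to 0, 7.31 and 19.2 RPM in P6 replicates 1 to 3. Like Dio2 it was highest in replicate 3 and lowest in replicate 1 at P6, and the value passed the threshold only without P6 DMSO replicate 1 (5.36, adjusted p = 0.00891). Without both libraries of P6 replicate 3 it was 3.603 (adjusted p = 0.100), and with CompE it went from 4.44 (adjusted p = 0.0413) to 3.10 (adjusted p = 0.148). For CompE the largest values were 0.93 for Slco1c1 at P0 (adjusted p = 0.806) and 0.88 for Slc7a8, an amino acid transporter that carries T3, at P6 (adjusted p = 1.00).

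Nuclear partners and cofactors gave no call. Of the 3 retinoid X receptor genes 0 were called in any of the 5 comparisons in edgeR. Rxra was at 36.8 to 75.6 RPM and Rxrb at 61.2 to 83.7 RPM over the 14 libraries, whereas Rxrg was at 0.597 to 7.38 RPM and differed by -1.07 between ages with DMSO (adjusted p = 0.126). Of 6 genes of the NCoR and SMRT corepressor complex 0 were called. Hdac3, its deacetylase, came nearest, with 0.70 between ages in CompE (SE 0.17, adjusted p = 0.00857, under 2-fold) and 0.43 in DMSO (adjusted p = 0.0763). Of 9 coactivators 0 were called, and the largest value was 0.91 for the acetyltransferase gene Kat2b between ages with CompE (adjusted p = 0.0668).

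Deiodinases are selenoproteins, so 6 genes that insert selenocysteine were read together with Dio1. None was called in a comparison by edgeR. Dio1, the deiodinase of liver and kidney, was at 0 to 0.412 RPM at P0. At P6 it was at 0, 5.19 and 1.09 RPM in DMSO replicates 1 to 3 and at 2.39, 0.766 and 1.20 RPM in CompE replicates. It differed by 4.25 with DMSO (SE 1.44, adjusted p = 0.0474), and DESeq2 called it (4.27, adjusted p = 0.00849). Without P6 DMSO replicate 2 it was 2.25 (adjusted p = 0.306). Trnau1ap, which associates with the selenocysteine tRNA, differed by -0.52 with DMSO (adjusted p = 0.0374). Secisbp2, which binds the selenocysteine insertion element, had the largest value for CompE at P0, 0.28 (adjusted p = 0.431).

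Genes whose log2(RPM + 1) followed a member most closely over the 14 libraries were picked among the 11335 genes that averaged 5 RPM or more. The points share ages, batches and treatment pairs, so these are descriptions. For Klf9 they were Aldh1a1 (r = 0.977), Bag3 (0.976) and Sept5 (0.974). Aldh1a1, a retinaldehyde dehydrogenase gene, averaged 9.37 RPM in P0 DMSO and 87.6 RPM in P6 DMSO, and Bag3, a cochaperone gene, 32.1 and 91.8 RPM. For Crym they were Pgf (r = 0.976), Tmem246 (0.974) and Chst15 (0.972), and Chst15, a chondroitin sulfate sulfotransferase gene, averaged 163.2 RPM in P0 DMSO, 53.4 in P0 CompE and 13.3 in P6 DMSO. After group means were removed, r was 0.685 to 0.931 over both sets. The genes had been picked on the same libraries, so this is no separate check. For Thra the closest were Ino80e (r = 0.892), Gbp3 (0.864) and Oasl2 (0.860), and for Thrb they included Crybg3 (0.822) and Dusp19 (0.805).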

How the data were processed

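Bulk libraries were grouped by age and treatment from their labels. The authors trimmed reads (Trim Galore 0.6.0, cutadapt 1.15), mapped them with STAR to mm10 (GRCm38) and deposited raw counts per gene. The STAR version was 2.7.0f in the submitters' processing notes, and their paper gives a different one. The annotation release and strand setting are not given in the sources used here. The deposited counts were not normalized, and 0 rows named no gene.

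RPM is a count divided by the library total of 19415066 to 44430063 counts, and RPM/kb divides by the union of exons in GENCODE M21. Above 10 RPM the difference between libraries, not counting, limits precision. Fits used edgeR 4.0.16 in R 4.3.3 (TMM, glmQLFit and glmQLFTest, genes filtered by filterByExpr at 10 counts), each age alone for treatment and all 14 libraries with 4 groups for the interaction and for ages. Thresholds were an adjusted p of 0.01 and 2-fold. Alternatives were DESeq2 1.42.0, DESeq2's size factors, no TMM, no filter, an adjusted p of 0.05 alone, replicate or batch blocks, other sample scopes, and leaving out libraries or pairs. The edgeR and DESeq2 fits without a block were tested on simulated data, and the other steps were not.

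Replicate numbers follow the batches in the labels, at P0 with replicates 3 and 4 in batch 3. Deviations from group means correlated across genes by 0.144 to 0.456 between same-numbered libraries at P0 and 0.251 to 0.605 at P6. The numbers were therefore taken as pairs for counts of pairs, ratios within pairs, the replicate block and the leaving out of pairs. The main edgeR fits and the DESeq2 fits had no term for pairs, so their p-values are unpaired. Labels do not say whether replicates came from separate litters, and p-values measure the spread between these samples. No replicates agreed within sampling noise (their chi-square was at least 20.5 per degree of freedom).

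The members and lists were chosen with earlier results of these data known. Named are all members, the called genes of each pathway list (at most 4) or otherwise its largest change, overlapping genes, the 3 genes most like each member above 5 RPM, and the top gene of a marker list. Also named after their values were seen are Klf13, Trnau1ap, Nrgn, Pcp2, Rxra, Rxrb, Jag1, Atoh1 and Pou4f3, and Tectb outside its called comparison. Some genes are not reported here, and the lists were shortened for them after their values were seen. Promoters are from RefSeq.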

Additional observations from a re-analysis of the deposited data

Results flagged for a closer look

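Among 12 groups of 4 libraries, the P0 groups of the 6 members, 3 held a library far from the rest. Chance marks about 1 in 20 such groups, a rate that does not apply to Dio3, where the other 3 libraries of each P0 group were at 0 and any read marks the group. Dio2 in P0 CompE replicate 2 was the highest of its group at 0.773 RPM (15 reads). Dio3 had reads only in replicate 3 of each P0 group, at 0.0583 RPM with CompE and 0.0953 RPM with DMSO, which are 2 and 3 reads.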

How the results depend on the processing

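The count of members called for CompE at P0 went from 1 to 0 with all 14 libraries in one fit and ranged from 0 to 1 as libraries or pairs were left out. Between ages it went from 2 to 1 with only the 7 libraries of one treatment, ranged from 1 to 3 in DMSO and from 1 to 2 in CompE as libraries were left out, and was 1 in both without both libraries of P6 replicate 3 (chosen after seeing the data). With DESeq2 it was 3 in both treatments (Dio2, Klf9 and Crym). At P6 and for the interaction it stayed at 0. The replicate block changed no member's call (Crym at P0, -1.59), moved all-gene calls at P0 from 195 to 350 and the interaction from 0 to 16, and reversed Dio2 (0.21) and Dio1 (0.30) in the interaction and Dio1 at P6 (0.49), none of them called. Without TMM, Thrb reversed at P0 (0.010) and between ages with CompE (-0.035), and Thra in the interaction (-0.028). That scaling moved the median of all genes from -0.03 to -0.17 with CompE, and the share higher among called genes from 55.1% to 43.2%.

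Leaving out libraries also reversed uncalled values, within ranges of -0.15 to 0.063 for Thrb and -0.36 to 0.022 for Klf9 at P0. At P6 the ranges were -0.27 to 0.042 for Thra, -0.017 to 0.27 for Thrb, -0.43 to 2.52 for Dio2, -0.85 to 0.11 for Crym, -0.11 to 0.19 for Klf9, -0.71 to 0.082 for Rxrg, -0.87 to 0.15 for Kcnj10 and -1.70 to 1.72 for Dio1. In the interaction they were -0.15 to 0.17 for Thra, -1.90 to 1.37 for Dio2, -0.053 to 0.69 for Kat2b and -2.12 to 1.27 for Dio1, and -0.088 to 0.21 for Thrb between ages with CompE. The cause was not tested. All-gene calls ranged from 1 (without P0 pair 4) to 443 (DESeq2) at P0 and rose to 1993 in DMSO and 1854 in CompE between ages with DESeq2.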
